A study of Mus musculus with 8 samples.

Results

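MLO-Y4 cells are a mouse osteocyte-like line, 1 clone from an animal with a viral T antigen under the osteocalcin promoter. They held a set of genes that were close to silent in the control libraries and had several-fold more reads in the libraries labelled ASO (antisense oligonucleotide). A gene was a member when its mean was below 4 CPM (counts scaled to a library total of 1000000) in control libraries, at least 0.5 CPM and at least 2 times the control mean in ASO libraries, with the lowest ASO library above the highest control library. These conditions were met by 171 genes. Of these, 12 with predicted or clone symbols and 8 on a list of 9 symbols named in the rule were left out, so that 151 members remained of 16369 genes in the table. The members made up 8.21% of the 1840 low genes, those with a control mean below 4 CPM and at least 0.5 CPM as the mean of whichever group was higher.

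The study compared 4 control libraries with 4 ASO libraries. All 8 came from wild-type MLO-Y4 cells grown in flow chamber slides, and both groups received the same 4 cycles of flow at a shear of 2 Pa. The treatment named in the labels is the silencing of H19, a long non-coding RNA from an imprinted gene. That text is the same for all 8 samples, and only the titles separate control from ASO. The labels do not state what the control cells received, nor whether the libraries came from separate cultures, so that the spread between libraries may be technical. H19 itself is not analysed here, so the labels were not checked against it.

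Libraries held 19501984 to 19914209 estimated reads, and 3 reads, the most that a count of 0 allows, corresponded to about 0.15 CPM. Genes with a read numbered 14426 to 14526 per control library and 14523 to 14601 per ASO library, ranges that overlap only narrowly. As a check of the labelled cell type, the osteocyte genes Gja1 (connexin 43) and Pdpn (podoplanin) had mean levels of 587 and 168 CPM in controls, while Sost and Mepe, which mark mature osteocytes, were at or near 0 in every library. Dmp1, another osteocyte gene, was low at 1.80 CPM in controls and 0.66 CPM in ASO libraries.

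Most genes of a mammalian genome are silent in any given cell type, and genes restricted to germ cells, neurons, photoreceptors or muscle are kept off by a lack of their activating factors, by DNA methylation and by repressive chromatin. A polyadenylated transcript normally ends when its 3' end is cleaved and the polymerase is released some distance past the gene. RNA that continues past that point can reach the next gene on the same strand, where gene-level counting assigns its reads to that gene. An antisense oligonucleotide pairs with its target RNA and commonly acts by recruiting RNase H.

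Promoter windows are shown for 3 members that were among the highest in the ASO group or had the largest ratio. Each runs from 250 bases before to 50 bases after the start site listed for the gene in RefSeq on GRCm38.p6, and capitals mark CG dinucleotides, the sites of DNA methylation. That start site is the outer end of the annotated gene for Lsmem1 and lies 49 bases inside it for Fam83e and 28 bases inside it for Slc5a5.

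Fam83e, chr7:45720970-45721269, plus strand: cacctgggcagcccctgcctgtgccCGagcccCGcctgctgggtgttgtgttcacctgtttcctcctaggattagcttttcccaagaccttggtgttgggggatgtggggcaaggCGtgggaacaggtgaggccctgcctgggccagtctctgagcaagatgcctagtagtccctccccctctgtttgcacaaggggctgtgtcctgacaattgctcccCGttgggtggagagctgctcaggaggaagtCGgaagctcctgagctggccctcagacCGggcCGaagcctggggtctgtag
Slc5a5, chr8:70892708-70893007, minus strand: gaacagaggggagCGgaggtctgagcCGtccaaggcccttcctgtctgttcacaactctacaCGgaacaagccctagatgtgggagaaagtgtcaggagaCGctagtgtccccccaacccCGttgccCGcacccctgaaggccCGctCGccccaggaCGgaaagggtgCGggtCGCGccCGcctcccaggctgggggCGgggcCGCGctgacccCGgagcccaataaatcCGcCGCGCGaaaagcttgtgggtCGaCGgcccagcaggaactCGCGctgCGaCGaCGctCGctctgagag
Lsmem1, chr12:40199266-40199565, minus strand: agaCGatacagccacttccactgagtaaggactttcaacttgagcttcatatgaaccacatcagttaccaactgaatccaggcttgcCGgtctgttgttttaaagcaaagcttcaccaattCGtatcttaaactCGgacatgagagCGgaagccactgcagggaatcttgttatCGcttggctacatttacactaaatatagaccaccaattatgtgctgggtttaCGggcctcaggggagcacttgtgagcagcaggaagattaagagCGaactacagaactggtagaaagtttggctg

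The number of CG dinucleotides in these windows was 7 in Fam83e, 8 in Lsmem1 and 29 in Slc5a5. As a ratio of observed to expected from base composition, this was 0.24, 0.52 and 0.86 in the same order, and 63.5% of the 27025 RefSeq mouse windows had a ratio under 0.6. A promoter window was matched for 104 of the 151 members, which is below 80%, so a comparison of promoter features between members and other genes is void.

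Fam83e, of a family that anchors casein kinase 1, reached the highest level of any member in the ASO group. Its controls were at 2.56, 2.24, 4.87 and 4.58 CPM and its ASO libraries at 9.66, 11.3, 9.24 and 10.8 CPM. Slc5a5, the sodium-iodide symporter that brings iodide into the thyroid, had 2.41, 3.56, 3.64 and 1.88 CPM in controls and 9.45, 8.04, 8.59 and 9.39 CPM in ASO libraries. In both genes every ASO library stood above every control, which the rule required.

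Lsmem1, which encodes a small membrane protein, was at 1.02, 0.815, 1.38 and 1.07 CPM in controls. Its ASO libraries were at 7.94, 7.01, 6.03 and 6.43 CPM, a ratio of means of 6.38. Chrna10, the alpha 10 subunit of the nicotinic acetylcholine receptor of cochlear hair cells, was at 0.307, 0.153, 0.615 and 0.458 CPM in controls and at 3.84, 3.38, 2.31 and 2.65 CPM in ASO libraries. For both, ASO replicate 1 was the highest library and ASO replicate 3 the lowest.

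Carmil2, a regulator of actin capping needed for T cell costimulation, had a mean of 8.02 ± 0.88 CPM in ASO libraries (SD, n = 4) against 3.08 ± 0.35 CPM. Gp5, a subunit of the platelet receptor for von Willebrand factor, had 2.61, 2.34, 3.23 and 2.95 CPM in controls and 8.29, 6.91, 5.27 and 6.99 CPM in ASO libraries. Fermt3, the integrin activator kindlin-3 of blood cells, rested at 1.23, 1.27, 1.95 and 2.24 CPM and stood at 6.07, 6.60, 4.77 and 5.56 CPM in ASO libraries. Evpl, the cornified envelope protein envoplakin, had a narrow control range of 1.23 to 1.43 CPM and a wider ASO range of 3.46 to 6.35 CPM. These 4 genes belong to T cells, platelets, blood cells and stratified epithelium, none of which the culture is labelled to contain.

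Members with the largest ratios had almost no reads in controls, so their ratios are imprecise. Il17re, the receptor subunit for the epithelial cytokine interleukin 17C, had 2 reads in all controls together and 59 in all ASO libraries, a ratio of 29.2 with an exact 95% interval of 7.76 to 248 that covers counting error only. Its ligand gene Il17c was also a member, at a mean of 0.34 CPM in controls and 0.72 CPM in ASO libraries. Dnah17, a dynein heavy chain of the sperm tail, had 2 and 49 reads, and its ratio of 24.3 had an interval of 6.39 to 207. Togaram2, Kcne1l and Cdkl4 had 3, 3 and 4 control reads, with ratios of 18.2 (5.91 to 91.0), 15.9 (5.12 to 79.8) and 15.4 (5.72 to 58.3).

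**Figure D1:**
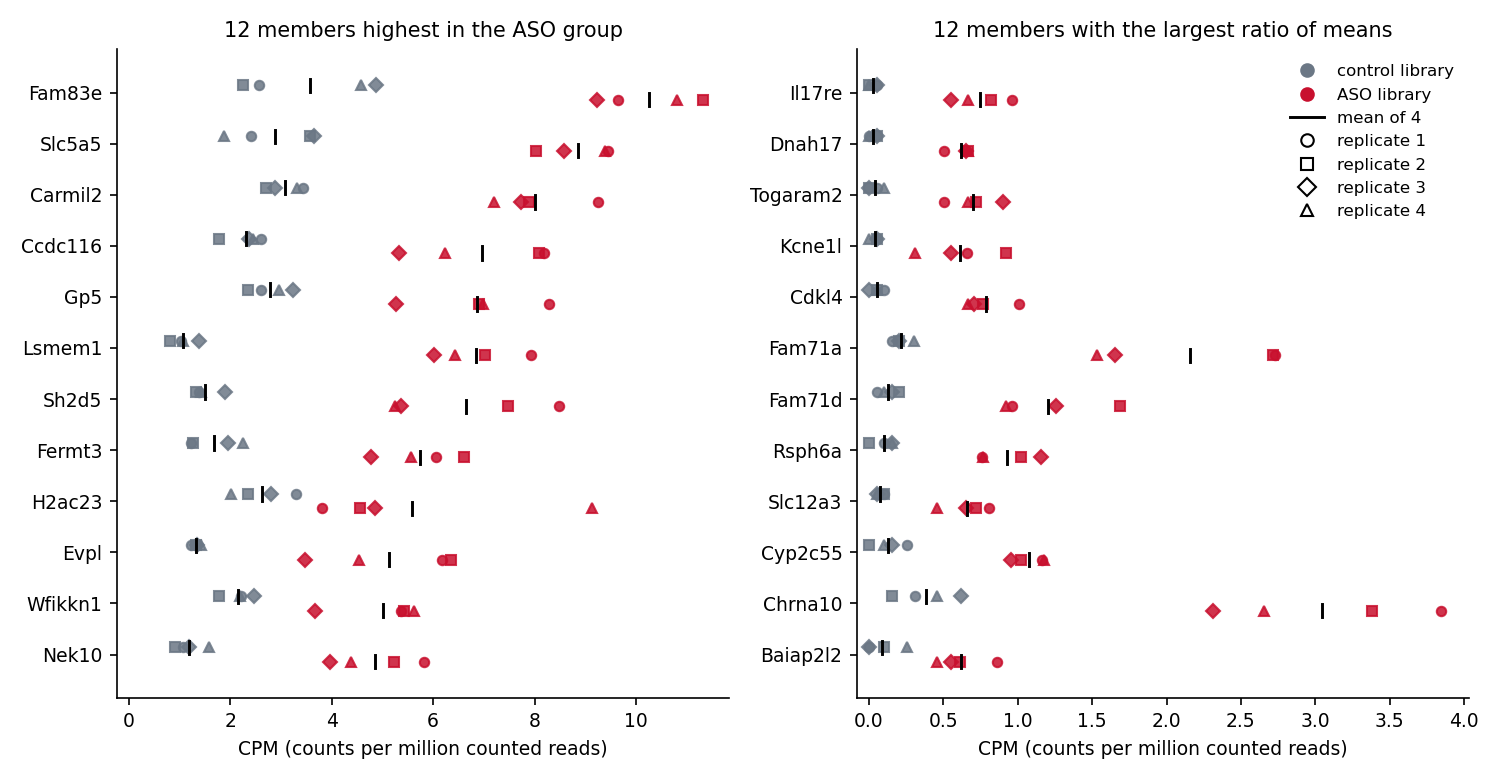
Level in CPM (horizontal axis) of the 12 members highest in the ASO group (left) and the 12 with the largest ratio of means (right); each point is 1 library, its shape the replicate number, and the bar the mean of 4. The rule fixed the separation of the groups; Fam83e reached 11.3 CPM in an ASO library, whereas most genes on the right stayed below 2 CPM.

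Over all members the mean level had a median of 0.46 CPM in controls and 1.45 CPM in ASO libraries, and the median ratio was 2.91, with a range of 2.00 to 29.2. A mean of at least 1 CPM in ASO libraries was found for 107 members, at least 2 CPM for 54 and at least 5 CPM for 11. Per transcript length, 82 members reached 1 TPM (the authors' length-scaled unit) and 7 reached 5 TPM. No member had 0 reads in all controls, and 13 had 0 reads in at least 1 control. The members thus went from a trace to a low level. In bulk RNA, more cells expressing a gene and more RNA per cell cannot be told apart.

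The values that set membership lay close to their limits in some genes. Highest in controls among the members were Fam83e, Carmil2 and Slc5a5 at means of 3.56, 3.08 and 2.87 CPM, and just beyond the limit were Nup210l, Zc3hav1l and Lct at 4.01, 5.48 and 6.17 CPM. Lowest in ASO libraries were Cyp21a1, S100a14 and Dlx5 at 0.51, 0.52 and 0.56 CPM, with Pecam1 and Cilp2 just outside at 0.48 CPM each and Lhx3 at 0.47 CPM. Oit3, AA986860 and Myo1a had ratios of 2.00, 2.01 and 2.01, while Il6 and Bnc1 missed with 1.95 and 1.93.

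Summed over members, controls had 104, 96.1, 112 and 111 CPM and ASO libraries 344, 339, 264 and 296 CPM. ASO replicates 1 and 2 were higher than ASO replicates 3 and 4, and the highest ASO library was replicate 1 for 63 members, replicate 2 for 52, replicate 3 for 11 and replicate 4 for 25. Within samples numbered 1 and 2 the median ratio was 3.60, and within those numbered 3 and 4 it was 2.64, with 106 members at least 2-fold in both. The deviations of the libraries from their group means were correlated over the 12227 genes tested. Between a control and an ASO library, the correlation was 0.05 to 0.25 within samples 1 and 2 or within 3 and 4. It was -0.27 to -0.08 across them, so both groups share this division. Its part in the members' levels was not tested. The other low genes summed to 2840 to 2937 CPM in controls and 2818 to 3087 CPM in ASO libraries, ranges that overlap.

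Of the members, 127 passed the filter on low counts, and all 127 were called higher by edgeR's quasi-likelihood test at an adjusted p below 0.05, against 7.11% called higher and 7.53% called lower of the 12227 genes tested. The rule used the same contrast, so nothing is read from that count. Complete separation of the groups in this direction, which is part of the rule, was found in 8.71% of all genes, and in the opposite direction in 6.81%. Swapping the groups in the rule gave 53 genes. These were 2.86% of the genes low in ASO libraries, defined like the low genes with the groups exchanged, beside the members' 8.21%.

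By the tissue in which each gene is best known to act, assigned by hand from general knowledge, members came from 11 kinds of tissue with none holding a majority. The nervous system accounted for 19, the germline for 17, skin, gut and kidney epithelium for 16, and blood and immune cells for 11. Retina and inner ear and muscle and heart had 10 each, liver and digestive glands 8, endocrine and gonadal tissue 7, motile cilia 4, and endothelium and skeleton 2 each. Another 11 were broad, and 34 could not be assigned. By protein type, 9 were transcription factors, 9 channels or transporters, 8 G protein-coupled receptors, 7 secreted ligands and 6 motor proteins.

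Germline members covered meiosis, the piRNA pathway that guards germ cells against transposons, the egg and the sperm tail. Msh4, which stabilises meiotic crossovers, was at 0.512, 0.204, 0.359 and 0.407 CPM in controls and 2.02, 2.82, 1.10 and 1.73 CPM in ASO libraries. Piwil2, a piRNA-binding Argonaute, was at 0.71 ± 0.24 CPM in controls and 1.45 ± 0.34 CPM in ASO libraries (SD, n = 4 each), and Pnldc1, the exonuclease that trims piRNAs, had a ratio of 2.21. Astl, the egg protease ovastacin that blocks further sperm from entering, was at 0.615, 0.865, 0.718 and 0.611 CPM in controls and 4.55, 3.33, 2.51 and 1.73 CPM in ASO libraries. Its ASO libraries differed among themselves by over 2-fold, yet all exceeded the controls.

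Fam71a, Fam71d and Fam71e2 belong to 1 testis-expressed family and had ratios of 9.94, 9.45 and 6.43. Fam71a was at 0.154, 0.204, 0.205 and 0.306 CPM in controls and at 2.73, 2.71, 1.66 and 1.53 CPM in ASO libraries. The 3 genes lie on different chromosomes.

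Neural members included receptors, a transcription factor and transmitter enzymes. Adra2b, the alpha 2B adrenergic receptor, was at 0.819, 1.53, 0.820 and 0.611 CPM in controls and at 5.91, 5.43, 3.52 and 3.73 CPM in ASO libraries. Tbr1, a T-box factor of cortical neurons, had a ratio of 4.94, and Grm2, a metabotropic glutamate receptor, a ratio of 6.09. Tph2, the serotonin-synthesising enzyme of brainstem neurons, was lower, at a mean of 0.76 CPM in ASO libraries.

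Sensory members took in the rod and cone transducin subunits Gnat1 and Gnb3, the rod arrestin Sag, and Tecta and Otoa of the inner ear's acellular membranes. Gnat1 was at 0.256, 0.153, 0.0513 and 0.306 CPM in controls and at 0.910, 0.563, 1.26 and 1.07 CPM in ASO libraries. Muscle members included the calcium pump Atp2a1, the chloride channel Clcn1, and Tcap, the telethonin that caps titin, with ratios of 2.95, 2.96 and 3.60. Endocrine members included Nr5a1, the steroidogenic factor 1, and Gnrh1, the hypothalamic releasing hormone, which stood at 0.60 and 0.86 CPM in ASO libraries. Skeletal members were Fgf18, a growth factor of bone and cartilage, at 0.410 to 0.815 CPM in controls and 1.59 to 2.53 CPM in ASO libraries, and the osteoblast factor Dlx5.

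**Figure D2:**
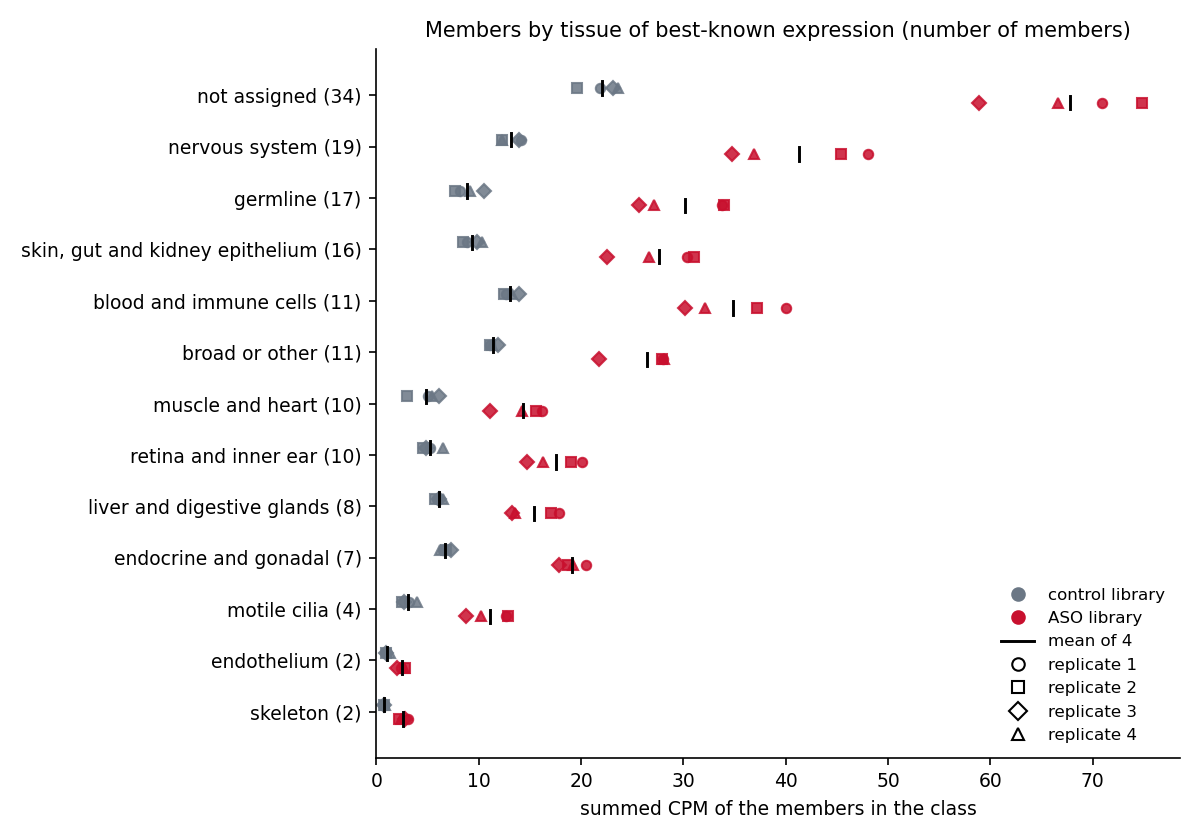
Summed CPM (horizontal axis) of the members in each tissue class, with the number of members in parentheses; each point is 1 library, its shape the replicate number, and the bar the mean of 4. All 13 classes, the unassigned one included, were higher in each ASO library than in every control, as the rule required of each member.

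Fixed gene lists held 4 of the 151 members. Of 380 genes on 21 lists, 271 had a row in the table and 116 could be tested. By edgeR 14 were called higher (12.1%) and 13 lower (11.2%), beside 7.11% higher and 7.53% lower of all tested genes. The 16 lists of tissue markers gave 7 higher and 7 lower of 52 tested, and the rest came from 5 lists of osteocyte, inflammatory, repressor, nicotinic receptor and cytochrome P450 genes. The members among the 271 genes were Piwil2, Gnat1, Apoa1 and Esam, while members made up 0.92% of all genes in the table. These 4 are among the 14 list genes and the 7 tissue markers called higher, and the rule had set their direction. Nothing is therefore read from the share of list genes called higher. In the list of meiotic and spermatogonial genes, 15 of 19 measured genes had a mean below the level of 3 reads, and Dazl, Sycp1 and Sycp3 had at most 3 reads in all libraries together. Apoa1, the main protein of high-density lipoprotein, was at 0.28 ± 0.07 CPM in controls and 1.21 ± 0.30 CPM in ASO libraries (SD, n = 4 each), whereas Alb and Hnf4a of the same list had at most 3 reads in all.

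Genes that keep others silent, such as DNA and histone methyltransferases and their partners, were measured on a list of 30. Of the 29 tested, Ehmt2, a histone H3 lysine 9 methyltransferase, was higher, at a mean of 186 CPM in controls and 222 CPM in ASO libraries, and Dnmt3a and Rcor1 were lower. Dnmt3a, a de novo DNA methyltransferase, fell from 28.1 to 20.3 CPM, a log2 fold change of -0.49 that passed edgeR's test. The median log2 fold change of that list was -0.02, beside 0.00 over all tested genes. What part these changes had in the members' levels was not tested.

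Beyond their levels, most of the placed members, though not all, had a position in common. Genes at 10 CPM or more in controls are called expressed here. The nearest expressed gene lay within 10 kb upstream on the same strand for 97 of the 150 members placed on GRCm38.p6 (64.7%). In such cases the member lay ahead in the direction of that gene's transcription. This arrangement was found in 175 of 1668 other low genes (10.5%) and in 1 of the 53 genes of the swapped rule (1.89%). The level of 10 CPM and the distance of 10 kb were chosen after the data had been seen, so these shares are given as a description without a test.

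Other arrangements were not more frequent among members. A neighbour on the opposite strand facing tail to tail was found for 7.33% of members and 12.4% of other low genes, a head-to-head neighbour for 1.33% and 7.91%, and an overlapping one for 5.33% and 11.4%. No expressed gene lay within 10 kb of 23 members (15.3%), against 51.2% of other low genes. Of those 23, 19 still had the nearest expressed gene upstream on the same strand, 18 of them within 50 kb. The median distance to the nearest expressed gene was 2418 bases for members and 10924 bases for other low genes.

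**Figure D3:**
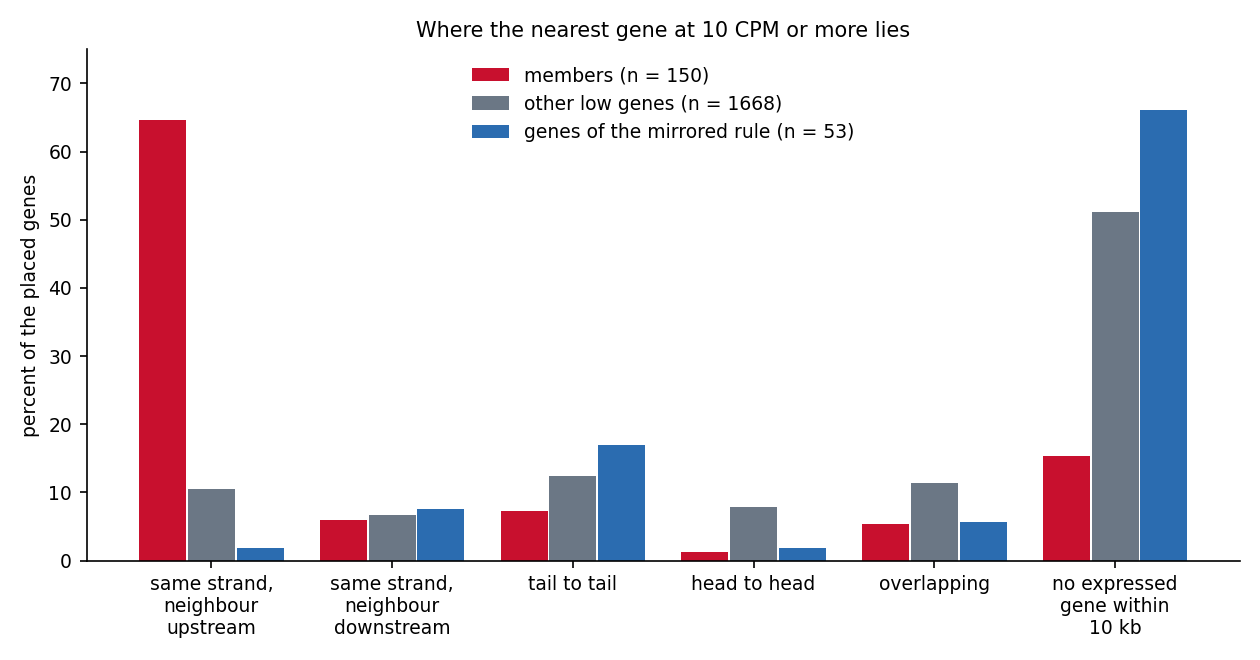
Percent of placed genes (vertical axis, from 0) by where the nearest gene at 10 CPM or more in controls lay, for the members, the other low genes and the genes of the swapped rule. The members' bar for an upstream neighbour on the same strand stands at 64.7%, against 10.5% of the other low genes and 1.89% of the swapped set.

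Several of the members described above lay behind abundant transcripts. Fam83e (chr7:45721171-45729755, plus strand) began 336 bases past the end of Rpl18, a ribosomal protein gene at 905 CPM in controls. Lsmem1 (chr12:40176386-40199315, minus strand) began 3814 bases past Ifrd1, at 448 CPM. Chrna10 (chr7:102111260-102116971, minus strand) followed the nucleoporin gene Nup98 at 2429 bases, and Fermt3 followed the co-chaperone gene Stip1 at 1227 bases. Astl followed the phosphatase gene Dusp2 at 262 bases. Adra2b came after Astl, 24802 bases past Dusp2 and thus beyond the 10 kb limit. None of these 5 upstream genes was itself called, with log2 fold changes between -0.24 for Dusp2 and 0.15 for Stip1 (edgeR, adjusted p of 0.082 and 0.146).

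Taken over all 126 expressed genes nearest to a member within 10 kb, 10 were called higher and 6 lower, with a median log2 fold change of 0.04. Among all 8947 genes at 10 CPM or more, 594 were higher and 738 lower. Higher calls thus outnumbered lower ones among these neighbours, while the reverse held among all genes at that level. Gp5 was higher in ASO libraries while the gene before it, Atp13a3, fell from 215 to 166 CPM, a log2 fold change of -0.40 ± 0.08 (SE, edgeR, adjusted p = 0.0065). Nek10, a kinase of motile cilia, stood behind Slc4a7, which fell by 0.46 on the log2 scale (SE 0.07, edgeR, adjusted p = 0.00082). In the other direction, Cdca3, tail to tail with Gnb3, rose by 0.61 on the log2 scale (SE 0.11, edgeR, adjusted p = 0.0033). The member Smim41 followed Atg101, which rose by 0.45 (SE 0.10, edgeR, adjusted p = 0.0085). Apoa1 followed Sik3, which rose by 0.18 on the log2 scale (edgeR, adjusted p = 0.043).

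The same arrangement was then followed in tested genes chosen by position and control level, with and without the 171 genes that met the numeric conditions of the rule. Among 267 tested genes under 4 CPM in controls with an expressed gene within 10 kb upstream on the same strand, 122 were called higher and 3 lower by edgeR. Of the 122, 88 were members, whose direction the rule had set, so nothing is read from that count. With the 171 genes left out of every arrangement, 24 of 169 such genes were called higher (14.2%) and 3 lower (1.78%). In all other arrangements together, 38 of 1541 were called higher (2.47%) and 88 lower (5.71%). The median log2 fold change was 0.28 in the former and -0.04 in the latter. Leaving the 171 genes out also takes away, in every arrangement, genes that were at least 2-fold higher. The count of 24 was 11 without ASO replicate 2, 13 without control replicate 2 and 14 without control replicate 4, which is 6.36%, 7.34% and 7.91% of the genes then tested, against 1.13%, 1.20% and 1.07% in the other arrangements.

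Among genes under 0.5 CPM in controls, the filter on low counts favours those that are higher in ASO libraries. None of them was called lower in any arrangement, so that class is not compared on its own. It is part of the genes under 4 CPM, above and below, with 13 of the 169 and 61 of the 1541. At 0.5 to 4 CPM, with the 171 genes left out, 22 of 156 genes with such an upstream neighbour were called higher (14.1%). In the other arrangements it was 33 of 1480 (2.23%), and the medians were 0.24 and -0.06. At 1 to 4 CPM, with the 171 genes left out, 18 of 104 genes with an upstream neighbour on the same strand were called higher (17.3%), against 27 of 1097 in the other arrangements (2.46%), and the medians were 0.24 and -0.06. Genes at 4 to 20 CPM are outside the membership rule. In that range 40 of 297 genes with such a neighbour were called higher (13.5%) and 11 lower, with a median of 0.08, while in each of the other arrangements 4.09% to 6.61% were called higher. At 20 CPM and over the share was 8.91% with such a neighbour. It was 4.39% to 8.31% in each of the other arrangements and 6.54% in them together. The median was 0.03 in the former and from -0.02 to 0.03 in each of the latter.

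Distance to the neighbour was compared next. With the 171 genes left out, low genes with an upstream neighbour on the same strand had a median log2 fold change of 0.31 up to 1 kb, 0.37 from 1 to 2 kb, 0.26 from 2 to 5 kb and 0.15 from 5 to 10 kb. It was -0.15 from 10 to 50 kb and -0.01 beyond. By control level of the upstream gene the medians had no steady order. They were 0.24 for 10 to 30 CPM, 0.32 for 30 to 100 CPM and 0.20 for 100 to 300 CPM. Behind a neighbour at 300 CPM and over the median was 0.43, for 7 genes. These classes held 70, 70, 22 and 7 genes, against 91, 114, 49 and 13 with the 171 genes kept, so the loss was uneven. With them kept, the medians were 0.36, 0.78, 1.05 and 0.81, which the rule in part set. No relation to the neighbour's level, or lack of it, is read from these medians.

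**Figure D4:**
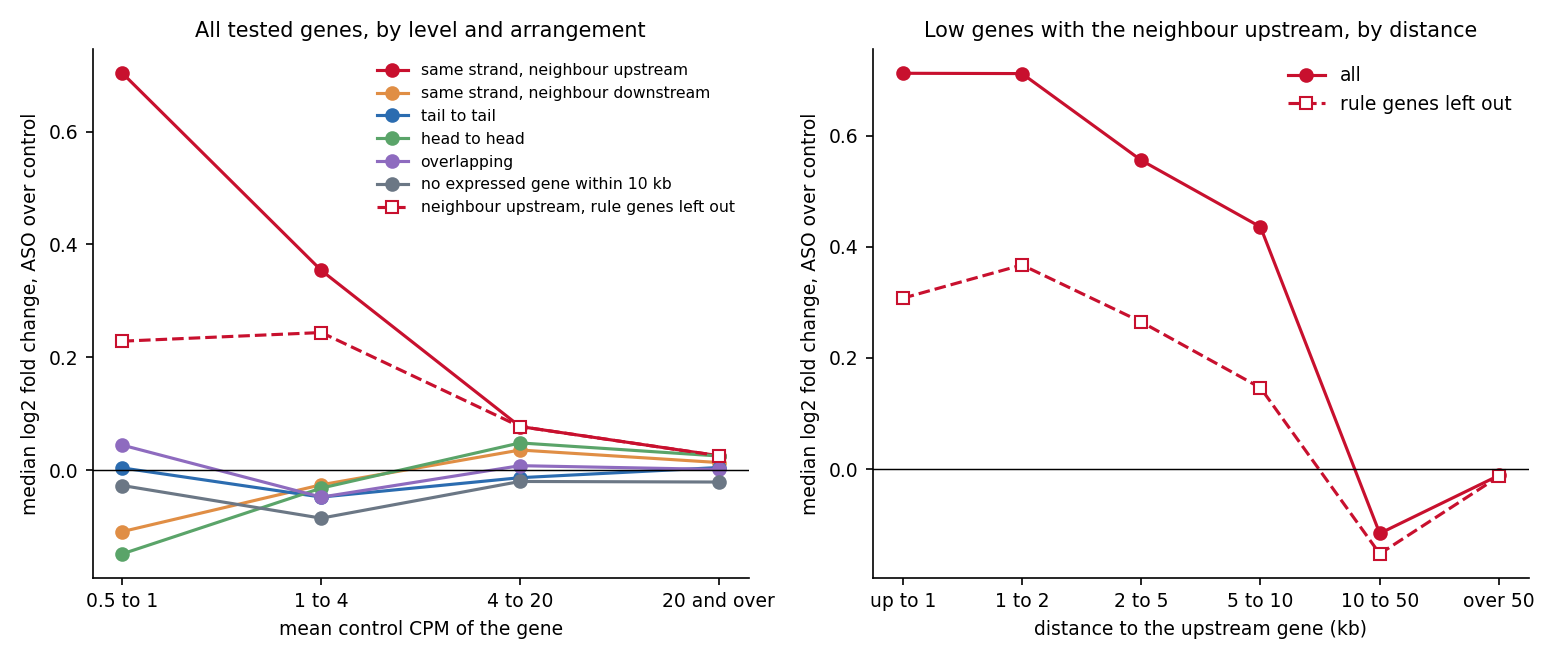
Median log2 fold change of ASO over control (vertical axes) for tested genes, by mean control CPM from 0.5 CPM and arrangement (left) and, for genes under 4 CPM with an upstream neighbour on the same strand, by distance (right); dashed lines leave out the 171 genes that met the numeric conditions of the rule. Without those genes the upstream class stands at 0.23 at 0.5 to 1 CPM and 0.24 at 1 to 4 CPM, and by distance the median goes from 0.31 up to 1 kb to -0.15 at 10 to 50 kb.

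Library by library, the 175 low genes with such a neighbour that did not meet the rule summed to 288, 273, 275 and 267 CPM in controls and 341, 360, 315 and 336 CPM in ASO libraries. The groups did not overlap. The 132 low genes in a head-to-head arrangement, counted in the same way, summed to 229 to 249 CPM in controls and 232 to 254 CPM in ASO libraries. The 854 without an expressed gene within 10 kb summed to 1417 to 1469 CPM and 1365 to 1487 CPM, so that the groups overlapped in both. In every arrangement, genes under 0.5 CPM in controls entered these sums only through a mean of at least 0.5 CPM in ASO libraries. That favours higher sums in ASO libraries, so nothing is read from the separation alone.

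Within the members, the 97 behind an expressed gene and the other 54 had similar ratios, with medians of 2.89 and 3.15. Their median levels in ASO libraries were 1.76 and 1.13 CPM. The arrangement was found in 15 of 17 germline members, 8 of 11 blood and immune members, 11 of 16 epithelial members and 25 of 34 unassigned members. It was found in 9 of 19 neural and 2 of 7 endocrine members. Members without it included Il17re, whose expressed neighbour Il17rc lay downstream, and Dlx5, Nr5a1 and H2ac23, which had no expressed gene within 10 kb.

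Reads that begin at a member's own start and reads of RNA that continues from the gene before it cannot be told apart in counts per gene. The library's strandedness is not clear from the labels, so reads from an antisense partner cannot be told apart either. Counts were not whole for 6 members, H2ac23, C4a, Ttc23l, Bnipl, Pnp2 and Ttbk1, and H2ac23 and C4a have near-identical copies, so that their levels are uncertain.

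Some members lay near each other. Within 50 kb of another member were 14 members (9.33%) and 43 other low genes (2.55%). The 7 pairs were Cfap70 and Mss51, Cyp21a1 and C4a, Chrm4 and Mdk, Astl and Adra2b, Lrit3 and Rrh, Sh2d5 and Kif17, and Tmem25 and Ttc36. Sh2d5, a brain adaptor protein, was at 1.38, 1.32, 1.90 and 1.43 CPM in controls and 8.49, 7.47, 5.37 and 5.26 CPM in ASO libraries. Kif17, a kinesin of dendrites 1283 bases further on the same strand, had a ratio of 2.70. Chrm4 overlapped Mdk, and Tmem25 overlapped Ttc36, so their reads may be shared. Of 478 tested non-members within 50 kb of a member, 44 were called higher (9.21%) and 30 lower (6.28%), beside 7.11% and 7.53% of all tested genes.

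Length, splicing and base composition were also set beside those of the other low genes. The median gene spanned 14130 bases in members and 19063 bases in other low genes, with medians of 9 and 7 exons in the longest transcript, and 5.37% and 5.26% had a single exon. The transcripts' median GC content was 54.6% in members and 51.5% in other low genes. The members were spread over 20 chromosomes, from 2 each on chromosomes 13, 18 and X to 14 on chromosome 8.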

How the data were processed

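RNA of 8 libraries of MLO-Y4 cells was sequenced (4 control, 4 ASO; groups and replicate numbers from the sample titles). Tools listed in the submitters' processing notes are Bowtie2 and HISAT, with mm10 and GRCm38.p6 as builds. How reads were counted is not given in the sources used here. A single table deposited by the authors holds estimated counts, FPKM and TPM per gene, per the file headers. Of the deposited estimated counts, 6.01% to 6.60% per library were no whole numbers, and they were rounded for the tests. The authors' FPKM values were not used for results, and the authors' TPM values only for levels per length and as an alternative.

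CPM were counts divided by the library's sum, times 1000000. Tests over all genes used edgeR 4.0.16 in R 4.3.3 (filterByExpr, TMM, glmQLFit and glmQLFTest, group as the single term), with Benjamini-Hochberg adjustment at 0.05, and were checked on simulated counts. Intervals of ratios are exact 95% intervals from the summed reads. DESeq2 1.42.0, limma 3.58.1, other scalings and filters, and leaving out each library were alternatives. Gene positions came from RefSeq on GRCm38.p6 (16321 of 16369 identifiers matched, and 150 of 151 members), strands, exons and transcript GC from GENCODE. Distances run between gene ends.

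The members, gene lists and tissue classes were chosen with earlier results of these data known, and the positional arrangement was noticed and defined on these data. Named genes were the 12 members highest in the ASO group, the 12 with the largest ratio, members on a list, those nearest each limit of the rule, members sharing a name stem or lying within 50 kb of another; further members were named after their values were seen. A few genes that the rule names are not reported here. The control and ASO libraries with the same number correlated at 0.05, 0.14, 0.21 and 0.13 in their deviations from the group means, so the numbers were not taken as pairs.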

Additional observations from a re-analysis of the deposited data

Results flagged for a closer look

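In 60 groups of 4 libraries examined, 3 had a library far from the other 3 by Dixon's criterion, where chance flags about 1 group in 20. Wfikkn1 had an ASO library at 3.67 CPM and the other ASO libraries between 5.36 and 5.61 CPM, a gap of 0.869 of the range. Dnah17 had an ASO library at 0.506 CPM below the others at 0.653 to 0.666 CPM, a gap of 0.92 of the range. Kcne1l had 1 control with 0 reads and 1 read in each of the other controls, a gap of 0.993 of the range that rests on a single read.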

How the results depend on the processing

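The membership rule kept 145 genes with TMM-scaled CPM, all of them members, and 120 with the authors' TPM, of which 111 were members; it kept 71 with a ratio of 3 in place of 2, and the swapped rule then kept 10. Leaving out 1 library gave 145 to 166 genes for the rule and 52 to 66 for the swapped rule. Leaving out 1 library gave 1105 to 1940 genes called over all tested genes, against 1790 with all; the lowest counts were 1105 (no control replicate 2), 1129 (no ASO replicate 4) and 1191 (no ASO replicate 3). It gave 121 to 134 members called higher, 15 to 26 list genes called against 27, and 23 to 52 non-members within 50 kb called higher against 44 (24 without ASO replicate 3, 26 without either control replicate 1 or 2). With samples 1 and 2 separated from 3 and 4 by a term, 3136 genes, 41 list genes and 85 such neighbours were called. Within 20 kb and 200 kb, 23 and 94 neighbours were called higher. As a replicate block, the sample number gave 2575 called genes and 127 members called higher. The single numbers were not taken as pairs, since 1 of the 4 same-number correlations was 0.05, while samples 1 and 2 stood apart from 3 and 4 in both groups.

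The alternatives on position were chosen after seeing the data. The share of members behind an expressed gene was 46.7% with neighbours at 50 CPM and 54.0% within 5 kb, where the other low genes had 5.52% and 7.85%; it was 61.9% to 64.4% when 1 library was left out of the rule. Low genes behind an expressed gene that were called higher numbered 94 to 148 under the alternatives of the test and 104 to 125 without 1 library; their share, 45.7%, was 28.4% with no filter on low counts and 32.6% with DESeq2. With the rule's genes left out, the share of 14.2% was 10.2% with no filter, 10.3% with DESeq2 and 20.1% with the division as a term, and 6.36% to 12.3% without 1 library (lowest without ASO replicate 2 and control replicates 2 and 4), beside 1.07% to 4.35% in the other arrangements under the same settings. With 3 reads at about 0.15 CPM, levels of members in controls are limited by depth.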
